A study of Homo sapiens with 3 samples.

Results

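Androgen-induced target genes other than the kallikreins were followed through the single-cell expression data as a set of 9 genes taken by symbol, FKBP5, PMEPA1, SLC45A3, STEAP4, NDRG1, ABCC4, ELL2, ZBTB16 and TRPM8, of 33423 genes with a row in any of the 3 files. All 9 had a row in both VCaP files and 8 had one in the LNCaP file, where STEAP4 had none and was counted as 0. The rule takes the genes by name and uses no measured value, although it was written with earlier results of these data known. Single cells were profiled by Drop-seq, which captures cells in droplets with barcoded beads and tags each mRNA molecule with a unique molecular identifier (UMI). The samples were LNCaP cells kept for 168 h in 10 µM enzalutamide (LNCaP–ENZ168), VCaP cells kept for 48 h in 0.1% DMSO, the vehicle (VCaP parental), and VCaP cells kept for 48 h in 10 µM enzalutamide (VCaP–ENZ48). With a single library per group, differences could not be checked against replicates, so none was tested and no p-value is given.

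LNCaP and VCaP are established prostate cancer cell lines that depend on androgens, both labelled as sensitive to enzalutamide (ENZ) and both grown in medium with fetal bovine serum. ENZ blocks androgen signaling. A vehicle library of LNCaP is not analysed here, so LNCaP–ENZ168 can be set only against VCaP–ENZ48, where cell line, duration and preparation cannot be told apart. The luminal markers KRT8, KRT18, EPCAM and CDH1 were detected in each library, with summed levels of 904 to 1003 counts per 1000000 UMIs (CPM), while the basal, stromal, immune and endothelial marker lists summed to at most 2.06 CPM each. KRT5 and TP63, which define basal cells, were at 0 in each library.

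Kept cells numbered 944 in LNCaP–ENZ168, 997 in VCaP parental and 947 in VCaP–ENZ48, with median depths of 5389, 17817 and 11224 UMIs. Barcodes ended in a base rather than N in 78.3% of kept cells of LNCaP–ENZ168, against 13.8% and 13.4% in the VCaP libraries, and their part in the results was not tested. Values by kind of barcode are given where a direction or an order turned on it. Each pair of files shared 1 barcode, and kept cells shared 0.

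Androgens act through a nuclear receptor that binds DNA at androgen response elements, most of which lie in enhancers at a distance from the gene, and recruits coactivators. Genes switched on in this way in prostate epithelium include the kallikreins and many genes for transport, metabolism, protein folding and transcription. Some respond to other signals as well. FKBP5 and ZBTB16 are also known as glucocorticoid-induced genes, and NDRG1 is also induced by hypoxia.

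The promoters of the 3 genes with the lowest ratios of VCaP–ENZ48 to VCaP parental, and that of TRPM8 for contrast, show what the sequence around the start site of these genes looks like. They run from 250 bases before the start of transcription to 50 bases after it, come from RefSeq on GRCh38.p14 and read 5′ to 3′ on the strand of the gene. Capitals mark the GC box GGGCGG (reverse complement CCGCCC), the CCAAT box CCAAT (reverse complement ATTGG) and the TATA box TATAAA (reverse complement TTTATA), each searched on both strands. SLC45A3 is at chr1:205680460-205680759, FKBP5 at chr6:35688866-35689165 and PMEPA1 at chr20:57709966-57710265, all on the minus strand, and TRPM8 is at chr2:233917123-233917422 on the plus strand.
SLC45A3: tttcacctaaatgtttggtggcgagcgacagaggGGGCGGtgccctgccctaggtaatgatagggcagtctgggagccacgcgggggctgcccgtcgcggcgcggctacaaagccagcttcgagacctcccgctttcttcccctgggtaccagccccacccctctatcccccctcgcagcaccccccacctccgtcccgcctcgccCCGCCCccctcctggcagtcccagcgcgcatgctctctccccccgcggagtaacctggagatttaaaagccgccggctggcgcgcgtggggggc
FKBP5: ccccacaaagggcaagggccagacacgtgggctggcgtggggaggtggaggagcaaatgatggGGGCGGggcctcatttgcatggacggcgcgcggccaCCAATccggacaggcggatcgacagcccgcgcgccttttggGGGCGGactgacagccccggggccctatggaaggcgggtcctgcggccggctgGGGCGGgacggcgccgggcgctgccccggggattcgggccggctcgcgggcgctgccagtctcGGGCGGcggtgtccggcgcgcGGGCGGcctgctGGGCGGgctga
PMEPA1: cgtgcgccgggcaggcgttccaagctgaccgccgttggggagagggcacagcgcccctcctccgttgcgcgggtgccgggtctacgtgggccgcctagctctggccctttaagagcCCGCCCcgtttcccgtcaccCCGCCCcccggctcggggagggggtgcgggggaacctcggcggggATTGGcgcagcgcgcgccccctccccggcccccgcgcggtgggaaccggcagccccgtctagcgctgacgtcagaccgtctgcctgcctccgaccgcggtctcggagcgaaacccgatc
TRPM8: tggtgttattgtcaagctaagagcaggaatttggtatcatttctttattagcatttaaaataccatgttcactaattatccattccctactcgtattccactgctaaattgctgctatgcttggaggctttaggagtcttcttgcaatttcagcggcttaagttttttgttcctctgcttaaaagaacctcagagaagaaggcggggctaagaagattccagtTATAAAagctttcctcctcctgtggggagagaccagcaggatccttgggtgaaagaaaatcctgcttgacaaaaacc

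The SLC45A3, FKBP5 and PMEPA1 promoters were rich in G and C, with 69% for SLC45A3, 76% for FKBP5 and 75.3% for PMEPA1, against a median of 58.7% over 35116 promoters of the same length (quartiles 47% and 68%). GC boxes numbered 6 in FKBP5, 2 in PMEPA1 and 2 in SLC45A3, and at least 1 GC box was present in 45% of all promoters. TRPM8 was different in composition, with 41% G and C and 3 CpG pairs, against 26 in SLC45A3, 38 in FKBP5 and 41 in PMEPA1. It held a TATA box 27 to 22 bases before the start site, a motif found in 11.5% of all promoters and in none of the other members listed. Of the 9 genes, 6 had an entry in the promoter table, which also covered STEAP4 (58.7% G and C) and ABCC4 (79.7% G and C), and for each the entry that began at the start of the canonical transcript was taken. Their promoters held no androgen response half-site AGAACA (reverse complement TGTTCT) and no full element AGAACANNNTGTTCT, which is its own reverse complement and contains the half-site. Of all promoters, 14.8% held the half-site and 0.0028% (1 promoter) the full element. These matches describe letters in these windows and were not tested as binding sites.

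On GRCh38 the protein-coding genes span chr6:35573585-35728583 (FKBP5), chr20:57648392-57711536 (PMEPA1), chr1:205657851-205680509 (SLC45A3), chr7:88270892-88306894 (STEAP4), chr13:95019835-95301475 (ABCC4), chr5:95885098-95961851 (ELL2), chr11:114059041-114256765 (ZBTB16) and chr2:233917373-234019522 (TRPM8), with NDRG1 on chromosome 8. SLC45A3 and ELL2 overlap no annotated coding or long noncoding gene. PMEPA1 overlaps the long noncoding RNA NKILA on the other strand, NDRG1 overlaps a long noncoding gene on its own strand, and the other members overlap unnamed genes of the other strand. The sources used here do not state whether counting used strand, so reads of these partners may be included.

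Levels are the UMI sums of each library in CPM, with exact Poisson 95% intervals that cover counting error only. UMIs count molecules at the 3′ end and were not divided by length, so levels are compared between libraries and not between genes. Ratios are log2 ratios of CPM with exact conditional 95% intervals.

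SLC45A3, FKBP5 and PMEPA1 had the lowest levels in VCaP–ENZ48 relative to VCaP parental. SLC45A3 encodes prostein, a transporter-like membrane protein characteristic of prostate epithelium. It was at 96.1 CPM (91.8 to 100.5, 1875 UMIs) in VCaP parental, 22.9 CPM (20.5 to 25.6, 328 UMIs) in VCaP–ENZ48 and 11.9 CPM (9.34 to 14.9, 75 UMIs) in LNCaP–ENZ168. The 3 intervals did not overlap, and the level in VCaP–ENZ48 was 4.19-fold below that in VCaP parental (3.72 to 4.73).

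FKBP5 is a cochaperone of HSP90 that modulates steroid hormone receptors. Its level was 66.9 CPM (63.3 to 70.7, 1306 UMIs) in VCaP parental, 23.8 CPM (21.4 to 26.5, 341 UMIs) in VCaP–ENZ48 and 28.7 CPM (24.6 to 33.2, 181 UMIs) in LNCaP–ENZ168. VCaP parental stood above both ENZ libraries, whose intervals overlapped. The VCaP difference was 2.81-fold (2.49 to 3.17).

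PMEPA1, a membrane protein that restrains TGF-β signaling, had the highest summed count of the set in VCaP parental, with 25.9% of its UMIs. It was at 212 CPM (206 to 219, 4145 UMIs) in VCaP parental, 98.5 CPM (93.4 to 103.8, 1409 UMIs) in VCaP–ENZ48 and 22.3 CPM (18.8 to 26.3, 141 UMIs) in LNCaP–ENZ168. No intervals overlapped, and the level was 2.16-fold lower in VCaP–ENZ48 than in VCaP parental (2.03 to 2.29).

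The transcription regulators were lower by less. ELL2, a subunit of the super elongation complex that helps RNA polymerase II through the gene body, was at 114 CPM (109.8 to 119, 2234 UMIs) in VCaP parental, 65.6 CPM (61.5 to 69.9, 938 UMIs) in VCaP–ENZ48 and 29 CPM (24.9 to 33.5, 183 UMIs) in LNCaP–ENZ168. The levels of ELL2 were separated in all 3 libraries. ZBTB16, a zinc finger repressor also called PLZF, was at 30.4 CPM (28 to 32.9, 593 UMIs) in VCaP parental and 19.7 CPM (17.5 to 22.2, 282 UMIs) in VCaP–ENZ48. In LNCaP–ENZ168 it was highest, at 57 CPM (51.3 to 63.2, 360 UMIs), which placed the libraries in another order than for ELL2.

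TRPM8, a cation channel opened by cold and menthol, was at 103 CPM (98.9 to 108, 2018 UMIs) in VCaP parental and 85.2 CPM (80.5 to 90.1, 1218 UMIs) in VCaP–ENZ48. LNCaP–ENZ168 held 6 TRPM8 UMIs in all, or 0.95 CPM (0.349 to 2.07). ABCC4 (MRP4), an efflux pump for cyclic nucleotides and other organic anions, was at 89.7 CPM (82.4 to 97.4, 566 UMIs) in LNCaP–ENZ168, where it gave 32.5% of the UMIs of the set. In VCaP it was at 53.1 CPM (50 to 56.5, 1037 UMIs) in the parental library and 57.3 CPM (53.4 to 61.3, 819 UMIs) in VCaP–ENZ48, and these intervals overlapped.

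NDRG1, a gene induced by stress and differentiation, was the only member with an interval of the VCaP ratio above 0. Its level was 139 CPM (134 to 144, 2713 UMIs) in VCaP parental, 190 CPM (183 to 198, 2722 UMIs) in VCaP–ENZ48 and 36.7 CPM (32.2 to 41.8, 232 UMIs) in LNCaP–ENZ168. Of the 9 genes it had the most UMIs in VCaP–ENZ48, 33.6% of those of the set. STEAP4, a metalloreductase that reduces iron and copper, had few UMIs, with 3.43 CPM (2.66 to 4.36, 67 UMIs) in VCaP parental and 2.80 CPM (2 to 3.81, 40 UMIs) in VCaP–ENZ48. It had 0 UMIs in LNCaP–ENZ168, for which the limit is 0.475 CPM.

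**Figure D1:**
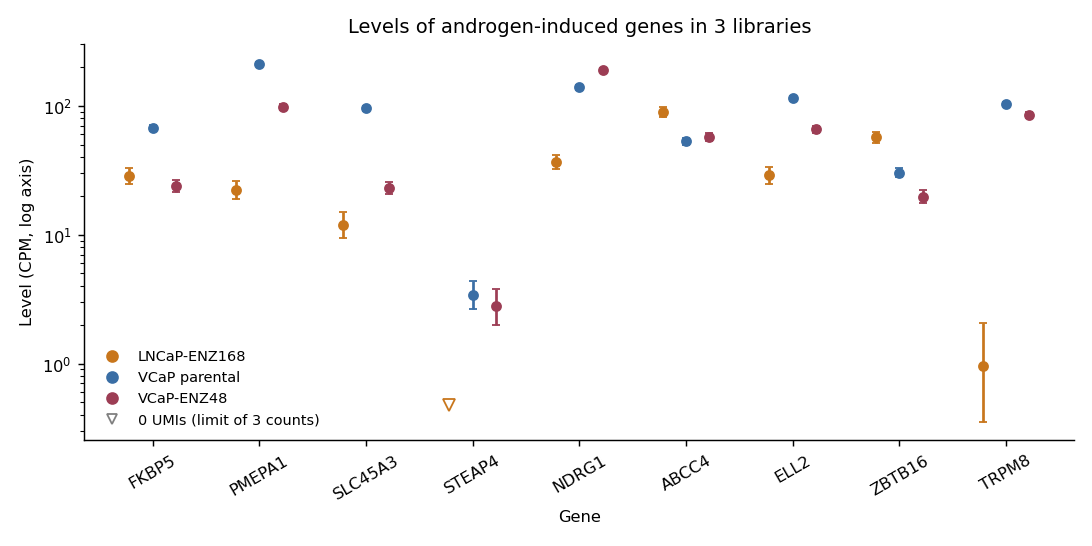
Level of each gene in CPM (log axis) in the 3 libraries. Points are UMIs summed over kept cells, bars are exact Poisson 95% intervals and the open triangle is the limit that a count of 0 allows. VCaP parental is the highest library for 6 of the genes, VCaP–ENZ48 for NDRG1 and LNCaP–ENZ168 for ABCC4 and ZBTB16.

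The VCaP pair addresses how far androgen-induced genes differ after a short exposure to ENZ. Of the 9 genes, 3 were at least 2-fold lower (SLC45A3, FKBP5 and PMEPA1), where 7.21% of the 7729 genes averaging 10 CPM or more were. None of the 9 was at least 2-fold higher, against 8.69% of all genes. A mean of at least 10 CPM was reached by 8 of the 9, all but STEAP4. The median log2 ratio of the 9 was -0.62 (-0.83 to -0.42, the interval of ZBTB16, the gene at the median), and that of all genes was -0.068 with quartiles of -0.45 and 0.35.

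The members spread over a wide range. SLC45A3 had a log2 ratio of -2.07 (-2.24 to -1.90), FKBP5 of -1.49 (-1.67 to -1.32) and PMEPA1 of -1.11 (-1.20 to -1.02). ELL2 followed with -0.80 (-0.92 to -0.69). TRPM8 had -0.28 (-0.38 to -0.18), inside the quartiles of all genes. STEAP4 had -0.30 with an interval that held 0 (-0.90 to 0.29), so no difference was detectable at its counts over all cells. For ABCC4 the ratio was 0.11 (-0.026 to 0.24), and it turned to -0.18 with TMM scaling, -0.12 with median-of-ratios scaling and -0.19 among barcodes ending in a base. NDRG1 had 0.45 (0.38 to 0.53), above 0 in each of the alternatives, down to 0.10 in cells with few S and G2M phase UMIs. In all, 6 intervals lay below 0 and 1 above it. How many of all genes had an interval apart from 0 was not counted, so these numbers describe the members only.

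TMM scaling shifted the median of all genes by -0.28, median-of-ratios scaling by -0.22 and totals without mitochondrial and ribosomal protein genes by 0.16. ELL2 went past the 2-fold limit with TMM (-1.09) and median-of-ratios scaling (-1.03), and PMEPA1 was just short of it without the mitochondrial and ribosomal protein genes (-0.99). Summed over the 9 genes the level was 819 CPM (807 to 832) in VCaP parental and 566 CPM (554 to 579) in VCaP–ENZ48, a log2 ratio of -0.53 (-0.57 to -0.49).

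**Figure D2:**
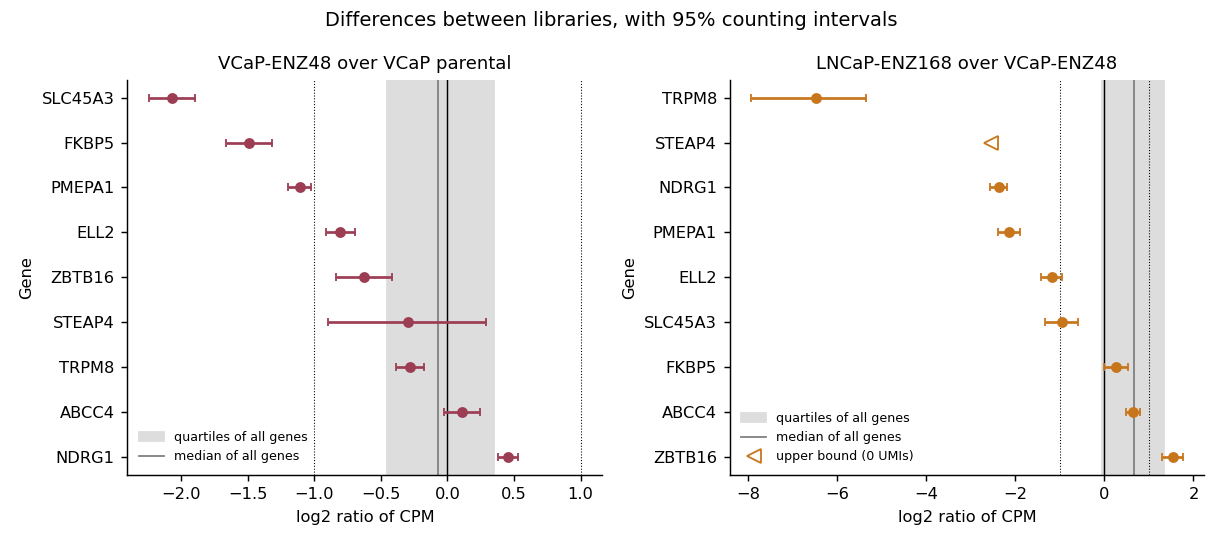
Log2 ratios of CPM of each gene, VCaP–ENZ48 over VCaP parental (left) and LNCaP–ENZ168 over VCaP–ENZ48 (right), with exact conditional 95% intervals. The grey band spans the quartiles and the grey line the median of all genes averaging 10 CPM or more, dotted lines mark 2-fold, and the open triangle is an upper bound from 0 UMIs. SLC45A3, FKBP5 and PMEPA1 lie beyond 2-fold on the left, and TRPM8 lies farthest from 0 on the right, at -6.49.

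LNCaP–ENZ168 was next set against VCaP–ENZ48, to see how the members differed between the ENZ-treated lines. Of the 9 genes, 5 were at least 2-fold lower in LNCaP–ENZ168 (TRPM8, STEAP4, NDRG1, PMEPA1 and ELL2), against 11.3% of 8854 genes, and 1 was at least 2-fold higher (ZBTB16), against 36.8%. A mean of at least 10 CPM was reached by 8 of the 9 here as well, and TRPM8 reached it only through VCaP–ENZ48. STEAP4, 1 of the 5, did not reach it and so lies outside the genes of the background. It was called from the bound that its count of 0 gives. The median log2 ratio was -1.18 (-1.41 to -0.95, the interval of ELL2), where that of all genes was 0.67. TMM scaling shifted the median of all genes by -0.57, median-of-ratios scaling by -0.53 and totals without mitochondrial and ribosomal protein genes by -0.26.

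TRPM8 was 89.6-fold lower in LNCaP–ENZ168 (41.1 to 245), on 6 UMIs. STEAP4 was at least 5.89-fold lower there with 3 counts per library as the floor, and at least 4.57-fold lower by the exact conditional interval. NDRG1 had a log2 ratio of -2.37 (-2.57 to -2.18) and PMEPA1 of -2.14 (-2.40 to -1.89). The ratio of SLC45A3 was -0.95 (-1.33 to -0.58), just inside 2-fold. FKBP5, at 0.27 (-0.0022 to 0.53), could not be separated between the libraries, and its ratio was -0.27 with TMM scaling, -0.23 with median-of-ratios scaling and -0.23 among barcodes ending in N. ABCC4 was higher in LNCaP–ENZ168 by 0.65 (0.49 to 0.80), close to the median of all genes, and ZBTB16 by 1.53 (1.30 to 1.76). The summed level was 276 CPM (263 to 290) in LNCaP–ENZ168, a log2 ratio of -1.04 (-1.11 to -0.96).

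Both comparisons use VCaP–ENZ48, so their values stand side by side and were not correlated. PMEPA1, ELL2, SLC45A3 and TRPM8 followed one order in the 3 libraries, with no overlap of their intervals, with VCaP parental above VCaP–ENZ48 and VCaP–ENZ48 above LNCaP–ENZ168.

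Detection was compared in cells thinned to 2000 UMIs, as the mean of 20 random draws, since depth differed between libraries. This left out 1 cell of LNCaP–ENZ168 and 30 of VCaP–ENZ48. PMEPA1 was detected in 33.4% of thinned VCaP parental cells (exact Clopper-Pearson 95% interval 30.5 to 36.4%), 17.3% (14.8 to 19.8%) in VCaP–ENZ48 and 4.64% (3.41 to 6.21%) in LNCaP–ENZ168. Unthinned, these shares were 90.6%, 58.1% and 13.2%. Each library holds cells of 1 line, with no cell type lacking these genes, so the share that free RNA gives was not measured.

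SLC45A3 was found in 16.6% (14.3 to 19%) of thinned cells in VCaP parental, 4.77% (3.51 to 6.39%) in VCaP–ENZ48 and 2.36% (1.47 to 3.51%) in LNCaP–ENZ168. FKBP5 gave 12.1% (10.1 to 14.2%), 3.89% (2.76 to 5.39%) and 4.96% (3.68 to 6.57%) in the same order. For both genes the VCaP intervals were apart. NDRG1 was in 23.3% (20.7 to 26%) of VCaP parental cells and 30.7% (27.7 to 33.7%) of VCaP–ENZ48 cells, the only gene with a higher share in VCaP–ENZ48 and intervals apart. For TRPM8 the shares of 18.2% (15.9 to 20.8%) and 15.2% (12.9 to 17.6%) overlapped, and LNCaP–ENZ168 had 0.196% (0.026 to 0.764%). STEAP4 was in 0.682% of thinned VCaP parental cells, 0.573% of VCaP–ENZ48 cells and 0 of 943 LNCaP–ENZ168 cells, which allows up to 0.318% of cells with a UMI by the limit of 3 counts and 0.390% by the Clopper-Pearson interval.

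At least 2 of the 9 genes were detected together in 41.9% (38.8 to 45.1%) of thinned VCaP parental cells, 25.7% (22.9 to 28.7%) in VCaP–ENZ48 and 9.20% (7.46 to 11.3%) in LNCaP–ENZ168. Without thinning the shares were 98.8%, 81.6% and 39.3%. No member was detected in 23.4%, 34.5% and 59.7% of thinned cells. The most members found in 1 thinned cell were 6 in VCaP parental, 5 in VCaP–ENZ48 and 4 in LNCaP–ENZ168.

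**Figure D3:**
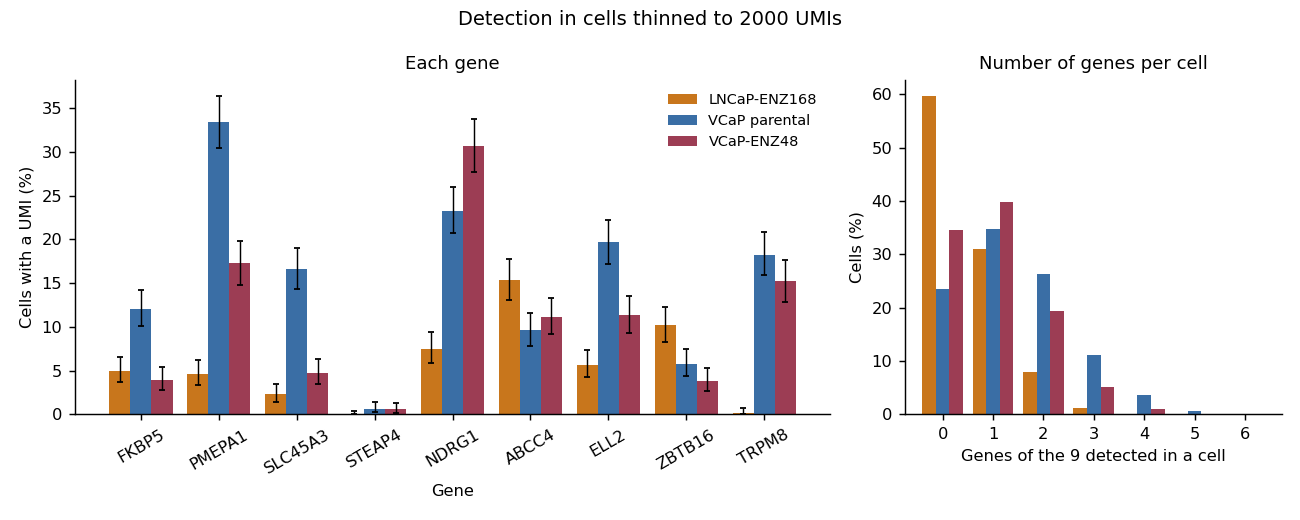
Share of cells, thinned to 2000 UMIs, with a UMI of each gene (left, bars are means of 20 draws with exact Clopper-Pearson 95% intervals) and the number of the 9 genes detected per cell (right, % of cells). PMEPA1, SLC45A3 and FKBP5 are found in fewer VCaP–ENZ48 than VCaP parental cells and NDRG1 in more, and LNCaP–ENZ168 has the highest share of cells with none, 59.7%.

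The members did not vary to the same degree between cells. Variation beyond counting error was measured as an excess coefficient of variation, which is 0 for a gene whose UMIs follow cell depth alone. SLC45A3 had the highest value among the members above 10 CPM in both VCaP libraries, with 99.6% in VCaP parental and 101% in VCaP–ENZ48, against medians over all genes of at least 10 CPM of 34.9% and 44.7%. PMEPA1 was at 52.9% and 59.4%, and TRPM8 at 52.3% and 67.3%. ABCC4 had the lowest, at 30.8% and 30.4%, below the median gene. Up to 29 PMEPA1 UMIs and up to 19 SLC45A3 UMIs were found in a single VCaP parental cell. In LNCaP–ENZ168 the members above 10 CPM were in another order, with ABCC4 highest at 83.2% (median of all genes 44.3%), and NDRG1 at 75.9% next. SLC45A3 gave 0% there, on 75 UMIs. Its estimated excess variance was below 0 (-0.43) and was set to 0, so this value does not show a lack of variation.

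Co-expression was described by Pearson correlations over cells of residuals from the count that depth alone predicts, over cells that share library and preparation. In VCaP parental the mean over the 36 pairs of members was 0.10, and 35 pairs were positive. The strongest pairs were PMEPA1 with SLC45A3 (0.26), SLC45A3 with TRPM8 (0.21), FKBP5 with SLC45A3 (0.21) and FKBP5 with ELL2 (0.20). Over all pairs of genes of at least 10 CPM the median was 0.0011 and the top 2.5% of pairs began at 0.088, and 21 of the 36 pairs of members were above that value. SLC45A3 followed the sum of the other members most closely (0.39), then PMEPA1 (0.34) and ELL2 (0.27), and ABCC4 (0.12) and STEAP4 (0.086) least.

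In VCaP–ENZ48 the mean over pairs was 0.043, with 28 of 36 pairs positive and 6 above the start of the top 2.5% of all pairs, 0.098. PMEPA1 with NDRG1 (0.15) and PMEPA1 with ZBTB16 (0.15) were the strongest. FKBP5, whose correlation with the sum of the others was 0.21 in VCaP parental, had 0.0038 in VCaP–ENZ48, with a 2.81-fold lower level. In LNCaP–ENZ168 the mean over 28 pairs was 0.021 and the strongest pair was ABCC4 with ZBTB16 (0.11), the members with the most UMIs there. That mean was 0.0094 among barcodes ending in a base and 0.073 among barcodes ending in N (205 cells), so its place below VCaP–ENZ48 depended on the kind of barcode. The residuals correct for depth and not for S and G2M phase genes. Depth, the levels of the members and the share of cells with few S and G2M UMIs also differed between the libraries. Their part in the correlations and in the order of the means was not tested. In cells thinned to 2000 UMIs the mean Spearman correlation in VCaP parental was 0.018.

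**Figure D4:**
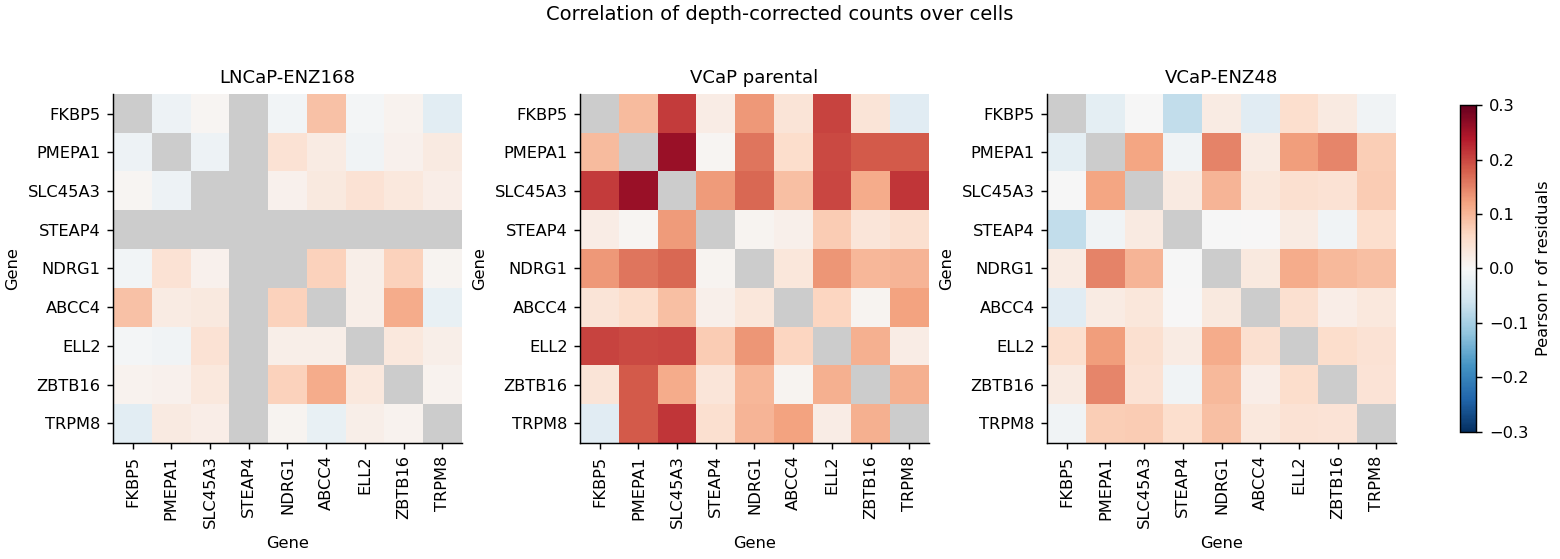
Pearson correlation over cells of depth-corrected counts for each pair of genes, 1 panel per library, on a color scale from -0.3 to 0.3. Grey marks a gene with itself and STEAP4 in LNCaP–ENZ168, which had 0 UMIs. VCaP parental has the strongest pairs, up to 0.26 for PMEPA1 with SLC45A3.

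Genes outside the set were ranked by the correlation of their residuals with the summed members, among genes of at least 50 CPM. In VCaP parental, KLK2, an androgen-induced kallikrein, was first with 0.40 of 2945 genes, followed by ERG with 0.38, which VCaP expresses from a fusion with the androgen-induced TMPRSS2. In VCaP–ENZ48 the first were the nuclear long noncoding RNA NEAT1 (0.33), the stress-response gene TP53INP1 (0.30) and the long noncoding RNA SNHG14 (0.29), of 2718 genes. In LNCaP–ENZ168 they were RDH11, a retinol dehydrogenase (0.26), MME, the membrane peptidase neprilysin (0.23), and STEAP2, a metalloreductase related to STEAP4 (0.23), of 3892 genes.

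S and G2M phase genes moved with these levels. The summed members correlated with summed S and G2M phase genes at -0.40 over cells in VCaP parental, -0.16 in LNCaP–ENZ168 and -0.033 in VCaP–ENZ48. Cells with at most 5 UMIs of 97 S and G2M genes among 2000 thinned UMIs made up 15.7% of VCaP parental (157 cells), 75.5% of VCaP–ENZ48 (692 cells) and 35% of LNCaP–ENZ168 (330 cells). These classes are ranges of 1 score and not cell types, and cells at the limit of 5 UMIs numbered 55, 118 and 109, with 34, 70 and 110 at 6 UMIs. In VCaP parental the summed members were at 988 CPM (952 to 1025) in these cells and 790 CPM (777 to 804) in the rest, at median depths of 16941 and 17923 UMIs. In VCaP–ENZ48 the levels were 567 CPM (553 to 582) and 563 CPM (539 to 588), with overlapping intervals.

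The members contributed unequally to this pattern in VCaP parental. SLC45A3 was at 147 CPM (134 to 162) in cells with few S and G2M UMIs and 87.3 CPM (82.8 to 91.9) in the rest. TRPM8 was at 148 CPM (135 to 163) against 95.7 CPM (91 to 100.5), NDRG1 at 176 CPM (161 to 192) against 133 CPM (127 to 138) and PMEPA1 at 244 CPM (226 to 263) against 207 CPM (200.1 to 214). The intervals of these 4 genes were apart. FKBP5 had the opposite order, 59 CPM (50.5 to 68.6) against 68.3 CPM (64.4 to 72.4), with overlapping intervals, and ABCC4 was at 52.7 and 53.2 CPM. In VCaP–ENZ48 only FKBP5 had intervals apart. It was at 21.6 CPM (18.9 to 24.6) in cells with few S and G2M UMIs and 30.4 CPM (24.9 to 36.7) in the rest. TRPM8 went the other way there, 88.7 CPM (83.2 to 94.6) against 74.5 CPM (65.8 to 84), with overlapping intervals.

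Set against each other within cells of few S and G2M UMIs, the VCaP libraries differed more in the summed and the median ratio of the members. The summed log2 ratio was -0.80 there and the median -0.84. SLC45A3 had -2.67, TRPM8 -0.74 and PMEPA1 -1.30, each further below 0 than over all cells. FKBP5 (-1.45), ABCC4 (0.082) and NDRG1 (0.10) were nearer 0 than over all cells. The number of members at least 2-fold lower was 3, as over all cells. STEAP4 had -0.94 there, on 18 UMIs in VCaP parental (6.29 CPM, 3.73 to 9.93) and 35 UMIs in VCaP–ENZ48 (3.27 CPM, 2.28 to 4.55), with overlapping intervals. NDRG1 was at 176 CPM (161 to 192) in VCaP parental and 189 CPM (181 to 197) in VCaP–ENZ48, with overlapping intervals. In LNCaP–ENZ168 the summed level was 325 CPM (302 to 349) in cells with few S and G2M UMIs and 248 CPM (232 to 263) in the rest, with ABCC4 at 108 CPM (94.6 to 122) against 79.1 CPM (70.6 to 88.4).

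**Figure D5:**
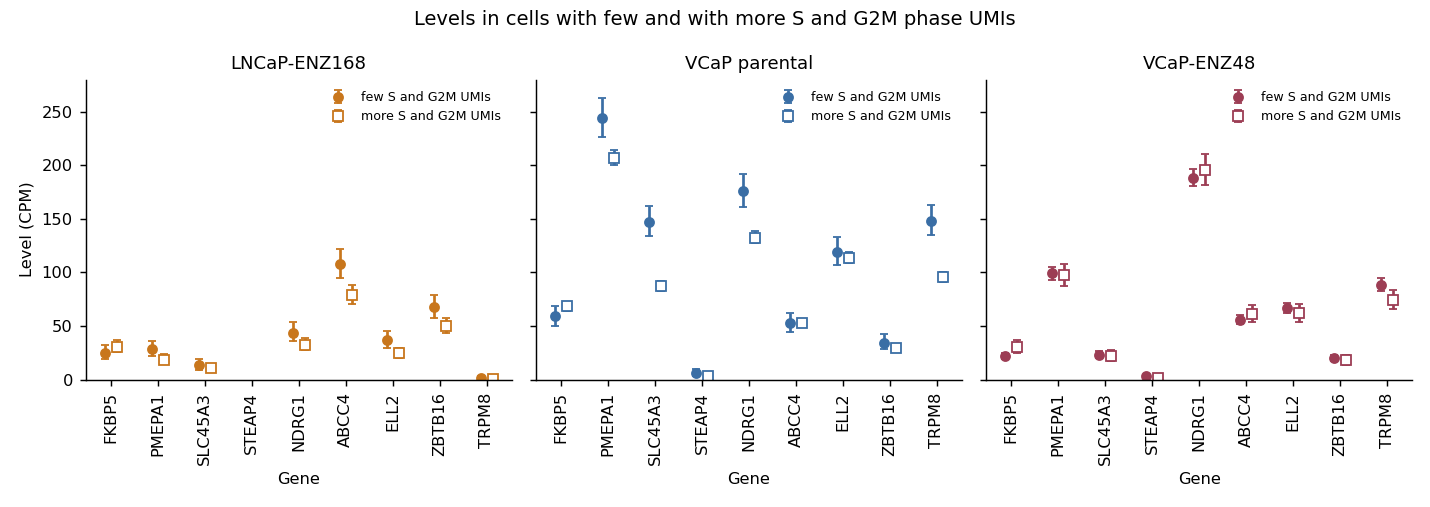
Level of each gene in CPM in cells with at most 5 S and G2M phase UMIs of 2000 (filled circles) and in the other cells (open squares), 1 panel per library, with exact Poisson 95% intervals. In VCaP parental SLC45A3, TRPM8, NDRG1 and PMEPA1 are higher in the cells with few S and G2M UMIs. In VCaP–ENZ48 the summed levels of both kinds of cell overlap, and FKBP5 is lower in the cells with few S and G2M UMIs.

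Cell depth moved with the summed levels less. In cells of low, middle and high depth, in groups of about equal size, the summed members were at 846, 796 and 823 CPM in VCaP parental, 583, 589 and 555 CPM in VCaP–ENZ48 and 283, 262 and 281 CPM in LNCaP–ENZ168. FKBP5 in VCaP–ENZ48 was at 14.7 CPM (8.95 to 22.6, 20 UMIs), 23.4 CPM (18.7 to 29) and 25.4 CPM (22.2 to 28.8). SLC45A3 in VCaP parental was at 113 CPM (103 to 124), 83.6 CPM (76.4 to 91.3) and 96.6 CPM (90.4 to 103). Its intervals at low and middle depth were apart.

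Other androgen-induced genes were read from a pair of lists, and give the setting for the members. Of 13 genes from the androgen activity list used by the study, 6 reached 10 CPM in the VCaP pair, and all 6 had ratios below 0, as did 54.8% of all genes, with a median of -0.95 (all genes -0.068). At least 2-fold lower were 3 of them (ACSL3, CENPN and MPHOSPH9), against 7.21% of all genes, with none 2-fold higher, against 8.69%. ACSL3 activates long-chain fatty acids, and CENPN and MPHOSPH9 also serve cell division, so the share of cells with few S and G2M UMIs, 15.7% in VCaP parental and 75.5% in VCaP–ENZ48, stands beside them and its part was not tested. Of 20 further genes known to be induced by androgens, 16 reached 10 CPM, 10 had ratios below 0 (54.8% of all genes did), 4 were at least 2-fold lower (7.21% of all genes were), none was 2-fold higher (8.69% of all genes were), and the median was -0.37. ELOVL5, TIPARP and IQGAP2 were among the 4. TIPARP reached 10 CPM only through VCaP parental, with 36.6 CPM there and 9.65 CPM in VCaP–ENZ48.

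Among the lowest ratios in these lists were -2.40 (-2.66 to -2.15) for CENPN, a centromere protein, and -1.92 (-2.20 to -1.66) for TIPARP, an ADP-ribosyltransferase. The highest were 0.53 (0.38 to 0.68) for SORD, sorbitol dehydrogenase, 0.59 (0.47 to 0.71) for SPDEF, an ETS factor of secretory epithelium, and 0.96 (0.87 to 1.05) for HPGD, which degrades prostaglandins. HPGD, like TRPM8, had few UMIs in LNCaP–ENZ168, at 1.27 CPM on 8 UMIs, against 95.4 CPM in VCaP parental and 185 CPM in VCaP–ENZ48. Between LNCaP–ENZ168 and VCaP–ENZ48, 6 genes of the list used by the study were measured at 10 CPM or more, none was at least 2-fold lower (11.3% of all genes were), 1 (CENPN) was higher (36.8% of all genes were) and the median was 0.38. Of the further genes, 17 were, 1 (HPGD) was at least 2-fold lower, 7 were higher, near the share of all genes, and the median was 0.56, where that of all genes was 0.67. HPGD reached 10 CPM only through VCaP–ENZ48, and TIPARP and STK39, which were among the 7, only through LNCaP–ENZ168.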

How the data were processed

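Per the labels and the methods of the study, each sample was 1 Drop-seq library. Reads were aligned by the authors with STAR (GRCh38) and tallied with the Drop-seq tools for 1000 expected cells. What they deposited are unnormalized UMI counts for each gene in 1000 barcodes per file. The totals of kept cells were 6313283 UMIs in LNCaP–ENZ168, 19515202 in VCaP parental and 14301287 in VCaP–ENZ48.

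Cells were kept from 300 genes and 500 UMIs upward if mitochondrial UMIs did not exceed 25%, and doublets were not removed. UMIs were summed per library and scaled to CPM. Sums carry exact Poisson, ratios exact conditional and shares exact Clopper-Pearson 95% intervals, which cover counting error only. A count of 0 was given a limit of 3 counts. Cells are not replicates, so no test was made. A gene was called at a log2 ratio of CPM beyond 2-fold, and all genes of at least 10 CPM on average gave the background. Thinning drew 2000 UMIs per cell without replacement, 20 times, and cells were classed by S and G2M genes on 1 such draw. Residuals were Pearson residuals of a Poisson mean of cell depth times the share of the gene.

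The members and gene lists were chosen with earlier results of these data known. Besides the members, the rule for named genes took the 3 lowest and 3 highest VCaP ratios of the androgen lists and, per library, the 3 genes most correlated with the summed members. Some genes that this rule gives are not reported here. Positions come from a later Gencode version than the authors used, and promoters from RefSeq. Alternatives covered cell and barcode filters, scaling, weighting, the pseudocount, thresholds, thinning, proliferation and the correlation measure, and the split to barcodes ending in N was added after seeing the data. Ratio intervals and signs were tried on simulated Poisson library sums, which lack variation between cells beyond counting error. The residual correlation was tried on simulated cells with and without a shared factor. Other steps were not simulated. Python 3.11.15 (numpy 2.4.6, pandas 2.3.3, scipy 1.17.1, matplotlib 3.10.9) and R 4.3.3 (Seurat 5.3.0 for S and G2M genes, edgeR 4.0.16 for TMM factors) were used.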

Additional observations from a re-analysis of the deposited data

How the results depend on the processing

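No paired analysis was possible because no group held more than 1 library. Each member's direction in both comparisons was the same in the 14 settings compared, that of the report included, except ABCC4 between the VCaP libraries and FKBP5 between the ENZ libraries, given above. For STEAP4 the direction between the ENZ libraries comes from the limit given to a count of 0 and was not measured. Between the VCaP libraries its ratio ran from -0.94 to -0.059, and its interval over all cells held 0. For VCaP–ENZ48 over VCaP parental, 5 genes were lower at a 1.5-fold limit, in place of 3 at 2-fold. The share of all genes at the 1.5-fold limit was not counted, so the 5 have no background beside them. The median ratio was -0.84 in cells with few S and G2M UMIs, -0.91 with TMM and -0.85 with median-of-ratios scaling, and the summed ratio was -0.80, -0.82 and -0.76 in that order and -0.42 without mitochondrial and ribosomal protein genes. For LNCaP–ENZ168 over VCaP–ENZ48 the median was -0.86, -1.71 and -1.67 under those first 3 settings and -1.43 without mitochondrial and ribosomal protein genes, and the summed ratio was -0.81, -1.57, -1.53 and -1.29, and -1.13 among barcodes ending in N. The share of cells with at least 2 members was 2.90%, 17.8% and 9.51% when thinned to 1000 UMIs (LNCaP–ENZ168, VCaP parental, VCaP–ENZ48), 23.1%, 72.7% and 55.1% at 4000 UMIs, and 39.3%, 98.8% and 81.6% without thinning. In cells with few S and G2M UMIs it was 11.6% in LNCaP–ENZ168 and 50.3% in VCaP parental. The mean correlation in VCaP parental was 0.018 as a Spearman correlation of thinned counts. Why these values moved was not tested. Values of STEAP4 rest on 67 UMIs in VCaP parental, 40 in VCaP–ENZ48 and 0 in LNCaP–ENZ168. Those of TRPM8 in LNCaP–ENZ168 rest on 6 UMIs.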

Other observations

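Gene lists for other inputs known to induce some of the members gave these values. Of 8 glucocorticoid-responsive genes, 4 reached 10 CPM in the VCaP pair, with a median log2 ratio of -0.16, against -0.068 for all genes. Only MT2A, a metallothionein, was at least 2-fold lower (-1.21, -1.26 to -1.16), where 7.21% of all genes were. Between LNCaP–ENZ168 and VCaP–ENZ48, 6 reached it, 4 were at least 2-fold higher in LNCaP–ENZ168 (TSC22D3, KLF9, DUSP1 and ERRFI1), where 36.8% of all genes were, and the median was 1.55, against 0.67 for all genes. TSC22D3, which encodes the glucocorticoid-induced leucine zipper, was at 44.5 CPM in LNCaP–ENZ168 and 3.43 CPM in VCaP–ENZ48, and reached the mean of 10 CPM only through LNCaP–ENZ168. ZBTB16, as described, was also higher in LNCaP–ENZ168, and FKBP5 was not separated.

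Of 11 hypoxia-responsive genes, 7 reached 10 CPM in the VCaP pair, with a median of -0.078, against -0.068 for all genes. Only P4HA1, a collagen prolyl hydroxylase subunit, was at least 2-fold lower (-1.30, -1.53 to -1.06), where 7.21% of all genes were. The ratio of NDRG1 was 0.45. Between LNCaP–ENZ168 and VCaP–ENZ48, 6 of 10 were at least 2-fold higher in LNCaP–ENZ168 (36.8% of all genes were), where NDRG1 was lower. ADM was the gene at least 2-fold lower (11.3% of all genes were), and the median was 1.58, against 0.67 for all genes. Of the 6, VEGFA, EGLN3 and BNIP3L reached the mean of 10 CPM only through LNCaP–ENZ168, and ADM reached it only through VCaP–ENZ48, so the filter fixed part of these counts. BNIP3L, a mitophagy receptor, had 2142 UMIs in LNCaP–ENZ168 against 1 in VCaP parental and 4 in VCaP–ENZ48. The genes named here were chosen after their values were seen.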
